A study of Mus musculus with 20 samples.

Results

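The mitochondrial genome of the mouse encodes core subunits of the respiratory chain, and 10 of its protein genes were followed in the cerebellum of SCA7 and WT mice. These are mt-Nd1, mt-Nd2, mt-Nd3, mt-Nd4, mt-Nd4l, mt-Nd5 and mt-Nd6 of complex I, mt-Cytb of complex III, mt-Co1 of complex IV and mt-Atp6 of complex V. They were chosen from a list of gene symbols, which was matched to the Ensembl identifiers of the read count table, and all 10 were found among its 55401 genes. The table holds 37 genes of the mitochondrial genome, of which 13 encode proteins, 2 encode rRNAs and 22 encode tRNAs. The 3 protein genes outside the list are mt-Co2, mt-Co3 and mt-Atp8. Since the list was drawn up with earlier results of these libraries known, the levels and differences of the 10 genes are given as descriptions, without p-values, and nothing is read from the counts of genes that passed a threshold.

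The study treated a mouse model of spinocerebellar ataxia type 7, a disease caused by a CAG expansion in Atxn7, with an shRNA directed at that repeat. Cerebellar RNA was sequenced from 20 mice, with 1 cerebellum per library, as stranded polyA libraries with single reads of 50 bases. Reads counted on genes ranged from 47455917 to 49212593 in untreated WT mice at 9 weeks, from 36245752 to 39208298 in AAV-shA4-treated WT mice at 9 weeks, from 39036803 to 54570503 in untreated WT mice at 25 weeks, from 33758498 to 40621179 in AAV-shSCR-treated SCA7 mice and from 31465586 to 44708557 in AAV-shA4-treated SCA7 mice.

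All mice had the C57BL/6J strain label. The 9-week groups were 3 WT mice treated with AAV-shA4, which carries the shRNA A4 in the PHP.eB capsid, and 3 untreated WT mice. The 25-week groups were 4 untreated WT mice, 5 SCA7 mice that received AAV-shA4 and 5 SCA7 mice that received AAV-shSCR, whose shRNA has a scrambled sequence. SCA7 mice were knock-in mice with 140 glutamine codons in 1 allele of Atxn7 and 5 in the other. By the methods text, AAV was given by retro-orbital injection at about 5 weeks of age, untreated mice received saline, and the construct expressed the shRNA from the H1 promoter and eGFP from the CMV promoter. The labels do not say whether their weeks count age or time after injection, and the weeks after injection in the study's text do not all match them. The design has no SCA7 mice without AAV and no WT mice with AAV-shSCR, so genotype and AAV treatment cannot be told apart in a comparison of SCA7 with WT mice.

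Mitochondria carry a small circular genome of their own, which is transcribed from both strands into long RNAs that are later cut into rRNAs, tRNAs and mRNAs. Its protein genes encode membrane subunits of the complexes that carry electrons and pump protons, and of the ATP synthase that uses the proton gradient, while the other subunits come from nuclear genes. Neurons of the cerebellum depend on this system for the ATP that drives their ion pumps.

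The tissue label was checked against cell type markers. All 10 Purkinje cell markers, all 9 granule cell markers and all 9 markers of Bergmann glia and astrocytes had counts in each of the 20 libraries, with Itpr1, Cbln3 and Slc1a3 as the most abundant gene of each list. The libraries hold RNA of the whole cerebellum, so fewer cells of a type and less RNA per cell cannot be told apart in any value below.

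The 10 genes lie in 1 circle of the mitochondrial genome (build GRCm38), 9 of them on the plus strand and mt-Nd6 on the minus strand. mt-Nd1 (ENSMUSG00000064341) spans positions 2751 to 3707, mt-Nd2 (ENSMUSG00000064345) 3914 to 4951, mt-Co1 (ENSMUSG00000064351) 5328 to 6872 and mt-Atp6 (ENSMUSG00000064357) 7927 to 8607. mt-Nd3 (ENSMUSG00000064360) spans 9459 to 9806, mt-Nd4l (ENSMUSG00000065947) 9877 to 10173, mt-Nd4 (ENSMUSG00000064363) 10167 to 11544 and mt-Nd5 (ENSMUSG00000064367) 11742 to 13565. mt-Nd6 (ENSMUSG00000064368) spans 13552 to 14070, read in the opposite direction, and mt-Cytb (ENSMUSG00000064370) spans 14145 to 15288. Neighbouring genes therefore overlap at 2 places. mt-Nd4l and mt-Nd4 share 7 bases on the same strand, and mt-Nd5 and mt-Nd6 share 14 bases on opposite strands.

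The 14 shared bases of mt-Nd5 and mt-Nd6 are shown because only the strand of a read tells the genes apart there. Whether the counts used the strand is not stated, and the levels of mt-Nd6 and its ratio to the other genes depend on that setting. The lines give the last bases of each gene, 5′ to 3′ on its own strand (chrM:13537-13565 for mt-Nd5, chrM:13552-13580 for mt-Nd6), with the shared bases in capitals.
mt-Nd5: ttatcttatactcaaTTAATCTCGAGTAA
mt-Nd6: ttattattatcgagaTTACTCGAGATTAA

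Levels are given as counts per 1e6 reads counted on the protein-coding genes that passed the filter on low counts (CPM). They were scaled with edgeR's TMM factors over the 20 libraries, and levels of rRNAs and tRNAs used the same divisor. Reads of 7 of the 10 genes passed the filter on low counts, and 3 did not. mt-Nd4l, a small membrane subunit of complex I, and mt-Atp6, the proton channel subunit of the ATP synthase, had 0 counts in each of the 20 libraries. mt-Nd3, another small subunit of complex I, had 6 counts in all, 1 each in the 3 untreated WT mice at 9 weeks, in replicates 1 and 4 of the untreated WT mice at 25 weeks and in replicate 1 of the AAV-shA4-treated SCA7 mice. The other 14 libraries had 0 counts on mt-Nd3. A floor of 3 counts corresponds to 0.0557 CPM in the deepest library, 0.0967 CPM in the shallowest and 0.00376 CPM over all libraries, where intervals and floors cover counting error only. mt-Nd4l and mt-Atp6 were below this floor in every group and mt-Nd3 was at most at it, so no comparison between groups is given for these 3 genes. Of the protein genes outside the list, mt-Co2 had 3 counts, mt-Co3 had 2 and mt-Atp8 had 0.

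The genes with few or no counts share much of their sequence with nuclear genes. A read of 50 bases loses its first base in trimming, so each gene was searched for windows of 49 bases that also occur in another annotated transcript of GENCODE release M21. For mt-Nd3, 98 percent of windows were shared, for mt-Nd4l 98.8 percent and for mt-Atp6 99.5 percent. Shared windows also made up 62.3 percent of mt-Nd4, 51.6 percent of mt-Co1, 8.38 percent of mt-Nd2 and 8 percent of mt-Nd5. No window of mt-Nd1, mt-Cytb or mt-Nd6 was shared at this length. The 3 genes without usable counts thus stood at the top of this order among the 10, while mt-Nd4 and mt-Co1, with more than 50 percent of windows shared, were counted at 97875 to 180507 and 256035 to 510358 reads per library. Of the protein genes outside the list, mt-Co2 shared 100 percent of its windows and mt-Co3 99.9 percent, at 3 and 2 counts, while mt-Atp8 had 0 counts and, at 49 bases, 0 shared windows. At 40 bases 4 of the 165 windows of mt-Atp8 were shared, with a copy of mt-Atp6. mt-Atp8 spans 7766 to 7969, between mt-Co2 and mt-Atp6. On chromosome 1 copies of mt-Co2 and mt-Atp6 are neighbours, and the bases between them, from 24614651 to 24614885, were not searched. Copies in genomic regions without an annotated transcript could not be searched, because the reference files used here held no genome sequence, and the study does not state how reads that map to several places were treated. The part of shared sequence in the low counts was not tested.

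Most of the shared windows lie in 1 stretch of chromosome 1. Between positions 24611535 and 24616197, on the minus strand, 7 annotated pseudogenes follow each other, each matching a mitochondrial gene over 294 to 876 bases. Gm28439 matches mt-Nd4 from its base 1 to its base 876, Gm10222 matches mt-Nd4l over 294 bases, Gm28438 matches mt-Nd3 over 345 bases and Gm10925 matches mt-Atp6 over 678 bases. These copies were themselves nearly without reads, at 5, 0, 12 and 273 counts in all libraries for Gm28439, Gm10222, Gm28438 and Gm10925. The copy of mt-Nd3 differs by T3C, counted from 1 at the first base of mt-Nd3, which lies in the start codon, and by no other base of its 345. The first bases of the 3 genes and of their copies are printed to show how alike they are. They lie at chrM:9459-9487, chrM:9877-9905 and chrM:7927-7955 on the plus strand, and at chr1:24613091-24613119, chr1:24612672-24612700 and chr1:24614623-24614651 on the minus strand, with the differing base in capitals.
mt-Nd3: atTaacctgtacactgttatcttcattaa
Gm28438: atCaacctgtacactgttatcttcattaa
mt-Nd4l: atgccatctaccttcttcaacctcaccat
Gm10222: atgccatctaccttcttcaacctcaccat
mt-Atp6: atgaacgaaaatctatttgcctcattcat
Gm10925: atgaacgaaaatctatttgcctcattcat

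**Figure D1:**
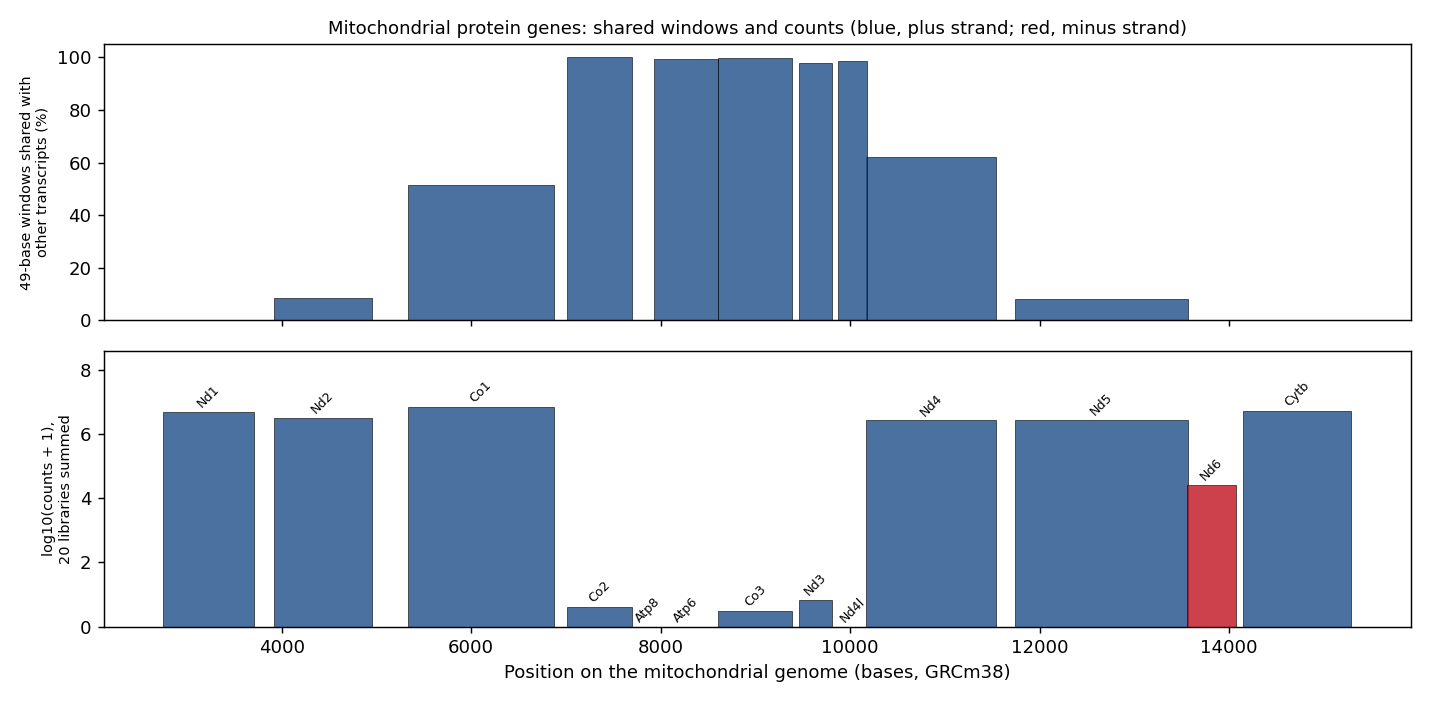
Protein genes along the mitochondrial genome (horizontal axis, bases). The upper bars give the percent of windows of 49 bases shared with other annotated transcripts, and the lower bars give the counts summed over 20 libraries as log10 of counts plus 1, with plus-strand genes in blue and mt-Nd6 in red. Genes between mt-Co1 and mt-Nd4 had 0 to 6 counts, and mt-Nd6 stood well below its neighbours mt-Nd5 and mt-Cytb.

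Among the 7 genes with reads, levels spanned a wide range. Divided by gene length, the mean over 20 libraries was 6408 CPM per kb for mt-Nd1, 5929 for mt-Cytb, 5675 for mt-Co1, 3803 for mt-Nd2, 2426 for mt-Nd4, 1961 for mt-Nd5 and 63.3 for mt-Nd6. On this scale mt-Nd1 was above mt-Cytb in 19 of 20 libraries and mt-Cytb above mt-Co1 in 16 of 20, and each later step of the order held in 20 of 20. mt-Nd6, the minus-strand gene, was thus the lowest in every library, and its neighbour mt-Nd5 exceeded it by a ratio of 30.98 in level per kb. When levels were instead divided by the number of start positions whose window was not shared, in CPM per 1e3 such positions, mt-Co1 came first at 12110.4, followed by mt-Nd1 at 6747, mt-Nd4 at 6661, mt-Cytb at 6189, mt-Nd2 at 4352, mt-Nd5 at 2189 and mt-Nd6 at 69.7. Here mt-Nd1 was above mt-Nd4 in 12 of 20 libraries, and the other steps held in 20 of 20. The place of mt-Co1 and mt-Nd4 among the plus-strand genes therefore depends on the scale, while mt-Nd5 and mt-Nd6 stay last on both. The 10 genes together took 3.32 ± 0.236 percent (SD, n = 3) of the counts on protein-coding genes in untreated WT mice at 9 weeks and 3.58 ± 0.350 percent (SD, n = 3) in AAV-shA4-treated WT mice. At 25 weeks this share was 3.27 ± 0.243 percent (SD, n = 4) in untreated WT mice, 3.00 ± 0.168 percent (SD, n = 5) in AAV-shSCR-treated SCA7 mice and 3.27 ± 0.107 percent (SD, n = 5) in AAV-shA4-treated SCA7 mice. Neighbouring groups overlap in this share, and the 95 percent Wilson interval of the share in a single library was at most 0.0126 percentage points wide.

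The first complex I subunit on the map is mt-Nd1, which forms part of the membrane arm close to the quinone site. Its level in CPM was 6908, 5874 and 6570.4 in untreated WT mice at 9 weeks and 7913, 6511 and 6879 in AAV-shA4-treated WT mice. At 25 weeks mt-Nd1 was measured at 6283, 7043, 5679 and 5775 CPM in untreated WT mice. AAV-shSCR-treated SCA7 mice had 5319, 5303, 5483, 4835 and 5767 CPM of mt-Nd1, and AAV-shA4-treated SCA7 mice had 5868, 6122, 6341, 6261 and 5924 CPM. Each of the 5 AAV-shA4-treated SCA7 mice was above each of the 5 AAV-shSCR-treated SCA7 mice, and both SCA7 groups overlapped with the untreated WT mice. Means in the order of the groups were 6451 ± 527 (SD, n = 3), 7101 ± 727 (SD, n = 3), 6195 ± 624 (SD, n = 4), 5341 ± 339 (SD, n = 5) and 6103 ± 206 CPM (SD, n = 5).

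mt-Nd2 is a proton-pumping subunit of the membrane arm. Its level in CPM was 4426, 3787 and 4347 in untreated and 5084, 4271 and 4302 in AAV-shA4-treated WT mice at 9 weeks. At 25 weeks mt-Nd2 was at 3816, 4522, 3948 and 3799 CPM in untreated WT mice, and at 3380.5, 3473, 3752, 3441 and 3982 CPM in AAV-shSCR-treated SCA7 mice. It was at 3602, 3424, 4130.2, 3835 and 3623 CPM in AAV-shA4-treated SCA7 mice. All 3 groups at 25 weeks overlap in mt-Nd2, and so do both groups at 9 weeks.

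mt-Nd4, a further proton-pumping subunit, was at 3749, 3369 and 3757 CPM in untreated and at 4429, 3548 and 3512 CPM in AAV-shA4-treated WT mice at 9 weeks. At 25 weeks it was at 3294, 3742, 3093 and 3192 CPM in untreated WT mice. The AAV-shSCR-treated SCA7 mice had 3001, 3029, 3195, 2839 and 3118 CPM and the AAV-shA4-treated SCA7 mice 3068, 3187, 3401, 3269 and 3081 CPM of mt-Nd4. Replicate 1 of the AAV-shA4-treated WT mice and replicate 2 of the untreated WT mice at 25 weeks were the highest of their groups, and the groups overlapped.

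mt-Nd5 is the proton-pumping subunit at the far end of the membrane arm. It was at 3835, 3356 and 3688 CPM in untreated and at 4467, 3594 and 3807 CPM in AAV-shA4-treated WT mice at 9 weeks. At 25 weeks mt-Nd5 was at 3471, 3984, 3517 and 3512 CPM in untreated WT mice, with replicate 2 standing apart from the others. In SCA7 mice mt-Nd5 was at 2817, 3277, 3537, 2815 and 3661 CPM with AAV-shSCR and at 3643, 3607, 3850.4, 3578 and 3519 CPM with AAV-shA4. The AAV-shSCR group held both low and high mice, with replicates 1 and 4 below every other library, whereas the AAV-shA4 group spanned a narrow range within that of the untreated WT mice.

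mt-Nd6, the complex I subunit encoded on the opposite strand, had the lowest level of the 7, with a spread between mice that was wider in the SCA7 groups than in the WT groups. In the AAV-shSCR group the wider spread rests on replicate 5, since the other 4 mice lay between 26.0 and 34.6 CPM. The untreated WT mice at 25 weeks lay between 26.7 and 35.8 CPM. In untreated WT mice at 9 weeks it was at 16.6, 16.9 and 17.0 CPM, and in AAV-shA4-treated WT mice of the same label at 29.9, 26.1 and 25.6 CPM. The untreated WT mice at 25 weeks had 26.7, 30.5, 35.8 and 32.8 CPM. All 3 untreated WT mice at 9 weeks were below each of the other 17 mice in mt-Nd6. AAV-shSCR-treated SCA7 mice had 27.0, 34.6, 26.0, 29.9 and 61.6 CPM and AAV-shA4-treated SCA7 mice had 40.5, 24.2, 47.4, 67.0 and 40.8 CPM of mt-Nd6. The 3 groups at 25 weeks overlap, with replicate 5 of the AAV-shSCR group and replicate 4 of the AAV-shA4 group far above the rest. Means were 16.9 ± 0.200 (SD, n = 3), 27.2 ± 2.37 (SD, n = 3), 31.5 ± 3.83 (SD, n = 4), 35.8 ± 14.8 (SD, n = 5) and 44.0 ± 15.5 CPM (SD, n = 5), from 774 to 2332 counts per library. In the order of these means, the neighbours overlap except the AAV-shA4-treated and the untreated WT mice at 9 weeks.

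**Figure D2:**
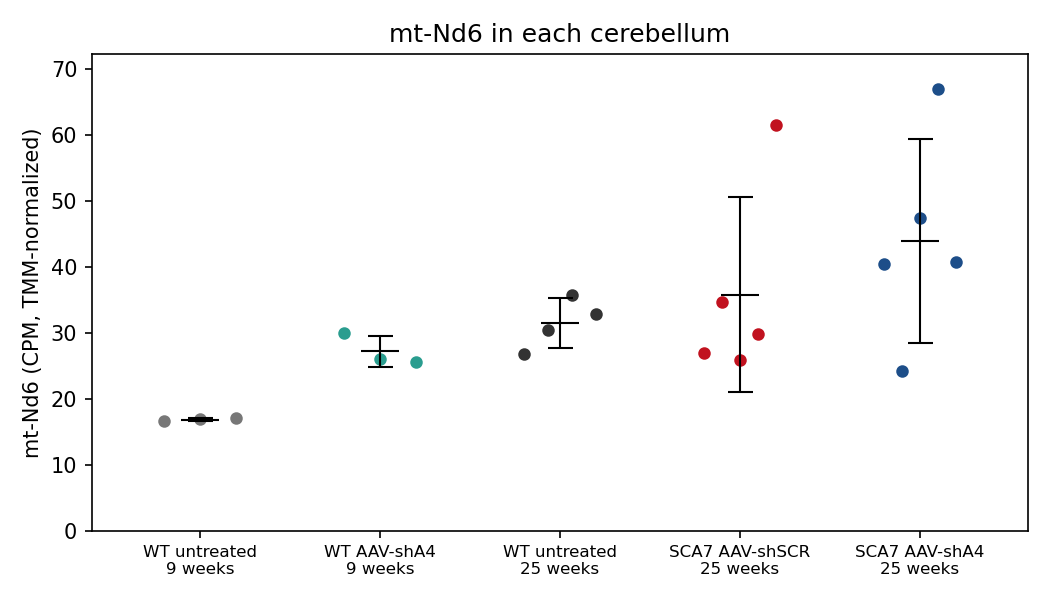
Level of mt-Nd6 in each of the 20 cerebella (vertical axis, CPM after TMM scaling) by group, with 1 point per mouse, and the mean and SD as lines. The 3 untreated WT mice at 9 weeks, at 16.6 to 17.0 CPM, lie below the 3 AAV-shA4-treated WT mice and all mice at 25 weeks.

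mt-Cytb, the only subunit of complex III encoded in mitochondria, was at 7377, 6677 and 7606 CPM in untreated and at 8431, 7158 and 7026 CPM in AAV-shA4-treated WT mice at 9 weeks. At 25 weeks mt-Cytb was at 6657, 7694, 6401 and 6368 CPM in untreated WT mice. It was at 6114, 6265, 6440.1, 5923 and 6432 CPM in AAV-shSCR-treated and at 6176, 6633, 7010.1, 6840 and 6424 CPM in AAV-shA4-treated SCA7 mice. The groups overlapped at 9 and at 25 weeks, and the 2 highest mt-Cytb values at 25 weeks came from an untreated WT mouse and an AAV-shA4-treated SCA7 mouse.

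mt-Co1, the catalytic core of complex IV, was at 9091, 7934 and 9093 CPM in untreated and at 10477, 8778 and 9189.6 CPM in AAV-shA4-treated WT mice at 9 weeks. At 25 weeks mt-Co1 was at 9569.7, 9878, 8749 and 8776 CPM in untreated WT mice. It was at 7719.5, 7946, 8113, 7427 and 8562 CPM in AAV-shSCR-treated and at 8685, 8899, 8882, 8985 and 8606 CPM in AAV-shA4-treated SCA7 mice. All 5 AAV-shSCR-treated mice were below all 4 untreated WT mice and all 5 AAV-shA4-treated mice in mt-Co1, and the AAV-shA4-treated SCA7 mice overlapped with the WT mice.

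**Figure D3:**
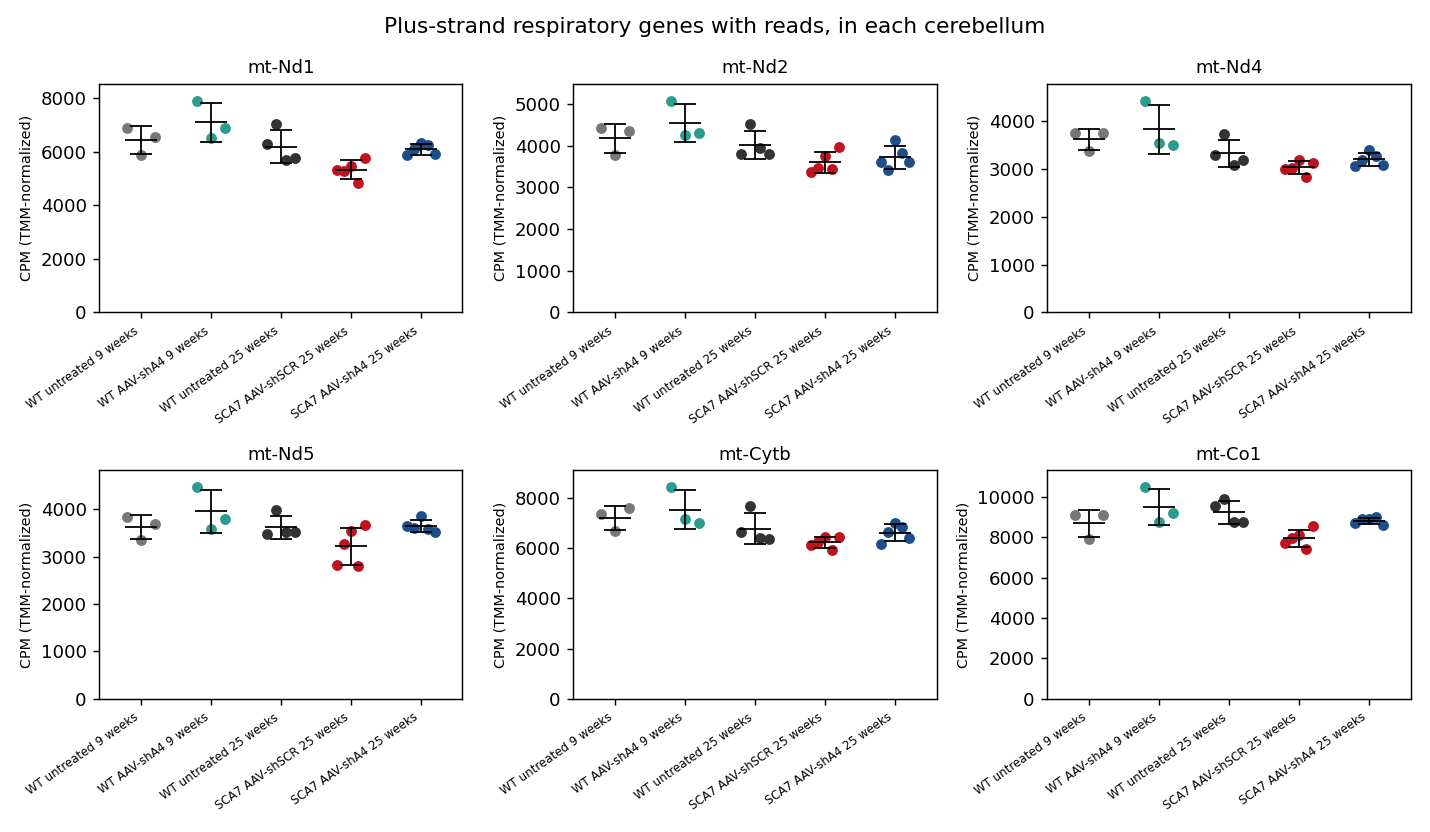
Levels of the 6 plus-strand genes with reads in each of the 20 cerebella (vertical axes, CPM after TMM scaling, starting at 0) by group, with 1 point per mouse, and the mean and SD as lines. In mt-Nd1 and mt-Co1 the 5 AAV-shSCR-treated SCA7 mice lie below the 5 AAV-shA4-treated SCA7 mice.

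Comparing AAV-shA4-treated with untreated WT mice at 9 weeks asks what the AAV and its shRNA do to WT cerebellum. mt-Nd6 was higher with AAV-shA4 by 0.69 on the log2 scale (standard error 0.077), and the treated and untreated groups did not overlap. The 6 plus-strand genes differed by 0.06 to 0.14, with mt-Nd1 at 0.14 (standard error 0.078), mt-Nd5 at 0.12 (standard error 0.079), mt-Co1 at 0.12 (standard error 0.074), mt-Nd2 at 0.12 (standard error 0.078), mt-Nd4 at 0.08 (standard error 0.085) and mt-Cytb at 0.06 (standard error 0.074), and in each of these 6 the groups overlapped. Without replicate 1 of the AAV-shA4-treated mice, mt-Nd4 turned to −0.04 and mt-Cytb to −0.03, and mt-Nd1, mt-Nd2, mt-Nd5 and mt-Co1 were at 0.05, 0.03, 0.03 and 0.04. Without replicate 2 of the untreated mice, mt-Nd1, mt-Nd2, mt-Nd4, mt-Nd5, mt-Co1 and mt-Cytb were at 0.08, 0.05, 0.03, 0.07, 0.06 and 0.0093. Larger values came without replicate 2 of the AAV-shA4-treated mice, at 0.20 for mt-Nd1, 0.17 for mt-Nd2, 0.13 for mt-Nd4, 0.19 for mt-Nd5, 0.18 for mt-Co1 and 0.10 for mt-Cytb. mt-Nd4 and mt-Cytb were at 0.13 and 0.11 without replicate 3 of these mice, and mt-Cytb was at 0.10 without replicate 3 of the untreated mice. A call took an adjusted p under 0.05 by the quasi-likelihood test of edgeR together with a fold change above 1.3, up or down. By this rule 1 of the 7 genes with reads, mt-Nd6, was called, against 0.0543 percent of the 14733 protein-coding genes tested (8 genes). More genes were called with DESeq2, 43 as higher and 10 as lower. Groups that did not overlap were found in 1 of the 7 against 16.0 percent of genes. On the adjusted p alone 1 of the 7 passed against 0.0679 percent of genes, and 11.1 percent of genes had an unadjusted p under 0.05. The call of mt-Nd6 was lost without replicate 2 of the AAV-shA4-treated mice or without replicate 3 of the untreated mice, with log2 fold changes of 0.72 and 0.70. The number of called genes was 1 and 2 without these libraries, 4 without replicate 2 of the untreated mice and 43 without replicate 3 of the AAV-shA4-treated mice.

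Within each library, mt-Nd6 can be set against the 9 plus-strand genes of the list, a ratio that does not depend on the scaling between libraries. There were 2126, 1838 and 2057 counts on the plus-strand genes per count of mt-Nd6 in untreated WT mice at 9 weeks and 1363, 1299 and 1355 in AAV-shA4-treated WT mice. The log2 ratio of mt-Nd6 to these genes was higher by 0.58 in the treated mice, without overlap between the groups. Some other values of these 6 libraries also did not overlap between the groups. Their total counts were apart, with 38252722, 39208298 and 36245752 in treated and 48528238, 47455917 and 49212593 in untreated mice. All 6 ependyma markers had a positive log2 fold change and 1, Ccdc153, was called (1.77, adjusted p = 0.0352 by edgeR), with summed levels of 34.8, 35.2 and 38.5 CPM in treated and 25.04, 22.6 and 31.03 CPM in untreated mice, Foxj1 as the most abundant gene and no marker at 0 in all libraries. Of the 9 oligodendrocyte markers, 8 had a negative log2 fold change, with summed levels of 7696, 7555 and 7353 CPM in treated and 8144, 8008 and 8319 CPM in untreated mice, Mbp as the most abundant gene and no marker at 0 in all libraries. All 9 markers of Bergmann glia and astrocytes had a positive log2 fold change, with sums of 5165, 4877 and 4949.8 CPM in treated and 4759, 4577 and 4763 CPM in untreated mice, Slc1a3 as the most abundant gene and no marker at 0. For 5 of 6 endothelial markers it was negative, with sums of 224, 233 and 237 CPM in treated and 252, 239 and 246 CPM in untreated mice, Flt1 as the most abundant gene and no marker at 0. All 8 microglia markers had a positive log2 fold change (median 0.14) and all 5 blood markers a negative one (median −0.80). The sums of both lists overlapped between the groups, and none of their markers passed the adjusted p. The part of depth and of these cell types in the values of mt-Nd6 was not tested.

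Both SCA7 groups were compared with the same 4 untreated WT mice at 25 weeks, so the values of these 2 comparisons share their control. They ask how the SCA7 cerebellum differs from WT when treated with the scrambled or with the CAG-directed shRNA. With AAV-shSCR, the 6 plus-strand genes had lower levels than in WT mice, by a log2 fold change of −0.22 for mt-Co1 (standard error 0.043), −0.21 for mt-Nd1 (standard error 0.058), −0.17 for mt-Nd5 (standard error 0.071), −0.16 for mt-Nd2 (standard error 0.063), −0.13 for mt-Nd4 (standard error 0.051) and −0.12 for mt-Cytb (standard error 0.053). With AAV-shA4, the same genes differed from WT by −0.07 for mt-Co1 (standard error 0.043), −0.02 for mt-Nd1 (standard error 0.058), 0.0076 for mt-Nd5 (standard error 0.071), −0.11 for mt-Nd2 (standard error 0.063), −0.06 for mt-Nd4 (standard error 0.051) and −0.04 for mt-Cytb (standard error 0.053). These directions were the same with DESeq2's scaling and with scaling that left out the mitochondrial genes. Left-out libraries kept the sign of all 6 with AAV-shSCR, but without replicate 2 of the untreated WT mice mt-Cytb, mt-Nd4 and mt-Nd2 were at −0.05, −0.07 and −0.10. With AAV-shA4 mt-Nd1, mt-Nd4 and mt-Cytb turned positive without replicate 2 of the untreated WT mice, at 0.05, 0.0043 and 0.03, where mt-Nd5 was at 0.06 and mt-Co1 and mt-Nd2 at −0.04 and −0.05. Without replicate 3 of the WT mice mt-Nd1, mt-Nd4 and mt-Cytb were further below WT, at −0.06, −0.09 and −0.06, and without replicate 4 mt-Nd1 and mt-Cytb were at −0.05 and −0.06. Of the AAV-shA4-treated mice, leaving out replicate 1 gave −0.0075 for mt-Nd1 and −0.011 for mt-Cytb, replicate 3 gave −0.04 and −0.06, and without replicate 5 mt-Nd1 was −0.011. Without replicates 4 and 5 of these mice mt-Nd5 was 0.014 and 0.02. mt-Nd5 was −0.013 without replicate 3 of the AAV-shA4-treated mice, and −0.012, −0.0061 and −0.0077 without replicates 1, 3 and 4 of the WT mice.

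For mt-Nd6, the SCA7 groups had the wide spread given above. Its log2 fold change against WT mice was 0.19 with AAV-shSCR (standard error 0.256) and 0.48 with AAV-shA4 (standard error 0.255), and both SCA7 groups overlapped with the WT mice. The value with AAV-shSCR rests on replicate 5 of that group, since it turned to −0.10 without it, and it was 0.12 without replicate 1 of the WT mice. It rose to 0.29 without replicate 3 of the AAV-shSCR-treated mice. The value with AAV-shA4 was 0.28 without replicate 4 of that group. The log2 ratio of mt-Nd6 to the plus-strand genes was higher than in WT mice by 0.29 with AAV-shSCR and by 0.46 with AAV-shA4, with overlap in both. It was 0.10 without replicate 5 of the AAV-shSCR-treated mice and 0.30 without replicate 4 of the AAV-shA4-treated mice. Counts on plus-strand genes per count of mt-Nd6 were 1238, 1209, 877 and 957 in WT mice, 1049, 846, 1176, 912 and 512 with AAV-shSCR and 766, 1319, 709, 489 and 765 with AAV-shA4.

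By the rule for a call, 0 of the 7 genes were called with AAV-shSCR by edgeR and 0 by DESeq2, against 4.02 percent of 14862 protein-coding genes, of which 4271 (28.7 percent) had an unadjusted p under 0.05 in edgeR's test. On the adjusted p alone mt-Nd1 and mt-Co1 passed, 2 of 7, against 15.5 percent of genes, and 1 of 7, mt-Co1, had groups that did not overlap, against 16.8 percent. With AAV-shA4, 0 of the 7 were called by edgeR and 0 by DESeq2, against 3.45 percent of genes, with 3950 genes (26.6 percent) at an unadjusted p under 0.05 in edgeR's test. On the adjusted p alone 13.6 percent of genes passed, and groups without overlap made up 13.4 percent of genes, with none of the 7 among either.

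Cell type markers moved in the same comparisons. All 10 Purkinje cell markers passed the adjusted p as lower in both SCA7 groups, by a median log2 fold change of −0.43 with AAV-shSCR and −0.40 with AAV-shA4. Their summed level was 10598, 11922, 11092 and 11059.9 CPM in WT mice, 8245, 7905, 8163, 7435 and 8279.6 CPM with AAV-shSCR and 7514, 8202, 8745, 8488 and 8058 CPM with AAV-shA4, with Itpr1 as the most abundant gene and no marker at 0. Of the 9 oligodendrocyte markers, 5 passed as lower in each SCA7 group, with summed levels of 6769, 5721, 6626 and 5861 CPM in WT mice, 4906, 4904, 5042, 4667 and 4197 CPM with AAV-shSCR and 4659, 4963, 5079, 5302 and 5043 CPM with AAV-shA4, Mbp as the most abundant gene and no marker at 0. All 5 blood markers had a positive log2 fold change in both SCA7 groups, by medians of 1.49 (AAV-shSCR) and 0.76 (AAV-shA4), and Hbb-bs, 1 of the 5, passed as higher with AAV-shSCR. Their summed levels were 2.25, 3.08, 5.18 and 4.00 CPM in WT mice, 27.0, 3.03, 10.2, 16.2 and 2.17 CPM with AAV-shSCR and 5.13, 5.34, 6.37, 4.38 and 8.27 CPM with AAV-shA4, with Hbb-bs also the most abundant and 4 of the 5 genes counted in every library. Choroid plexus markers were negative for 7 of 7 with AAV-shA4 (median −0.57) and 6 of 7 with AAV-shSCR (median −0.26), though none passed. They summed to 1174, 1053, 1803 and 3871 CPM in WT mice, 655, 2945, 1947, 2033 and 1761 CPM with AAV-shSCR and 3322, 51.1, 530.03, 345 and 2921 CPM with AAV-shA4, with Ttr as the most abundant gene and no marker at 0. The part of these cell types in the levels of the mitochondrial genes was not tested.

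The comparison of AAV-shA4 with AAV-shSCR in SCA7 mice asks what the CAG-directed shRNA changed. All 7 genes with reads had a positive log2 fold change, of 0.19 for mt-Nd1 (standard error 0.055), 0.18 for mt-Nd5 (standard error 0.067), 0.15 for mt-Co1 (standard error 0.041), 0.09 for mt-Cytb (standard error 0.050), 0.08 for mt-Nd4 (standard error 0.048), 0.05 for mt-Nd2 (standard error 0.060) and 0.29 for mt-Nd6 (standard error 0.239). These 7 directions were the same with DESeq2's scaling, with scaling that left out the mitochondrial genes and with each library left out in turn. In mt-Nd1 and mt-Co1 the groups did not overlap, 2 of 7 against 1.51 percent of 14862 genes. By edgeR 0 of the 7 were called, against 0 percent of all genes tested, with 1222 genes (8.22 percent) at an unadjusted p under 0.05, and DESeq2 called 0 of the 7 and 4 genes in all. mt-Nd6 fell to 0.09 without replicate 4 of the AAV-shA4-treated mice and rose to 0.58 without replicate 5 of the AAV-shSCR-treated mice, and to 0.44 without replicate 2 of the AAV-shA4-treated mice. It was 0.19 without replicate 3 of the AAV-shSCR-treated mice. The log2 ratio of mt-Nd6 to the plus-strand genes was higher by 0.17 with AAV-shA4, with overlap, and was 0.0095 and 0.37 without replicates 4 and 2 of the AAV-shA4-treated mice and 0.10, 0.06 and 0.36 without replicates 1, 3 and 5 of the AAV-shSCR-treated mice. mt-Nd2 was 0.0063 without replicate 3 of the AAV-shA4-treated mice, 0.02 and 0.03 without replicates 1 and 4 of the AAV-shSCR-treated mice, 0.07 without replicate 2 of the AAV-shA4-treated mice and 0.08 without replicate 5 of the AAV-shSCR-treated mice. Among the cell type markers, all 9 of oligodendrocytes had a positive log2 fold change, with a median of 0.10, and sums of 4659, 4963, 5079, 5302 and 5043 CPM with AAV-shA4 against 4906, 4904, 5042, 4667 and 4197 CPM with AAV-shSCR. All 5 blood markers were negative, with a median of −0.95, and all 7 of the choroid plexus were negative, with a median of −0.35. Choroid plexus sums were 3322, 51.1, 530.03, 345 and 2921 CPM with AAV-shA4 and 655, 2945, 1947, 2033 and 1761 CPM with AAV-shSCR, with Ttr as the most abundant gene and no marker at 0. Their part in the levels of the mitochondrial genes was not tested.

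Untreated WT mice at 25 and at 9 weeks differ in age, but also in whatever separated the collection and preparation of these libraries, which cannot be told apart. mt-Nd6 was higher at 25 weeks by 0.90 on the log2 scale (standard error 0.088), and the 4 mice at 25 weeks did not overlap with the 3 at 9 weeks. The plus-strand genes, whose values moved with single libraries, ranged from −0.12 for mt-Nd4 (standard error 0.068) to 0.09 for mt-Co1 (standard error 0.064), with mt-Cytb at −0.09 (standard error 0.072), mt-Nd1 and mt-Nd2 at −0.06 (standard errors 0.080 and 0.073) and mt-Nd5 at −0.00058 (standard error 0.061), all with overlap. Under DESeq2's scaling or scaling without the mitochondrial genes mt-Nd5 turned to a positive value near 0, at 0.00016 with DESeq2. With 1 library left out, mt-Nd1 ranged from −0.12 to −0.0031, mt-Nd2 from −0.12 to −0.013, mt-Cytb from −0.15 (without replicate 2 at 25 weeks) to −0.05 (without replicate 3 at 9 weeks) and mt-Co1 down to 0.03 (without replicate 2 at 9 weeks). For mt-Nd1 and mt-Nd2 the value nearest 0 was without replicate 1 at 9 weeks. mt-Nd5 moved furthest without replicate 2 at 9 or at 25 weeks, to −0.05 in both cases, and was positive without replicates 1 and 3 at 9 weeks (0.04 and 0.010) and without replicates 1, 3 and 4 at 25 weeks (0.02, 0.013 and 0.014). By the rule for a call 1 of the 7 genes, mt-Nd6, was called, against 5.14 percent of 14875 genes, and 1 of 7 had groups without overlap, against 33.8 percent. On the adjusted p alone 1 of 7 passed against 23.0 percent of genes, with 36.9 percent at an unadjusted p under 0.05. mt-Nd6 was called with each of the 7 libraries left out in turn, at 0.83 to 0.97. Relative to the plus-strand genes its log2 ratio was higher at 25 weeks by 0.92, again without overlap. Of 9 oligodendrocyte markers, 8 passed as lower, and the summed levels of all 9 did not overlap either, with 6769 CPM as the highest at 25 weeks and 8008 CPM as the lowest at 9 weeks. Other lists that moved included blood, where all 5 markers had a negative log2 fold change and 3 passed as lower. Blood sums were 4.47, 8.81 and 6.89 CPM at 9 weeks against 2.25, 3.08, 5.18 and 4.00 CPM at 25 weeks. For granule cells 8 of 9 markers had a negative log2 fold change and 3 passed as lower. Their sums were 8232, 8001 and 7325 CPM at 9 weeks against 6003, 7132, 7008 and 6907 CPM at 25 weeks. Positive log2 fold changes were found for all 7 choroid plexus markers, with a median of 0.52 and sums of 881, 1333 and 1955 CPM at 9 weeks against 1174, 1053, 1803 and 3871 CPM at 25 weeks, and for 5 of 6 ependyma markers, with a median of 0.51 and sums of 25.04, 22.6 and 31.03 CPM against 29.1, 22.7, 35.1 and 33.2 CPM. All 8 microglia markers had a positive log2 fold change, with a median of 0.17, and 4 passed as higher. Their sums did not overlap, with 201, 199 and 211 CPM at 9 weeks against 252, 224, 229 and 223 CPM at 25 weeks. Hbb-bs, Cbln3, Ttr and Foxj1 were the most abundant genes of the blood, granule cell, choroid plexus and ependyma lists. The part of the cell types named here in mt-Nd6 was not tested.

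Across the mice of a group, the plus-strand genes varied together and mt-Nd6 varied apart from them. As deviations from the group mean in log2 CPM over the 20 libraries, the 15 pairs among the 6 plus-strand genes had Pearson correlations of 0.751 to 0.969 with a median of 0.848. The 6 pairs of mt-Nd6 with these genes had correlations of 0.152 to 0.497 with a median of 0.224. The points share their libraries and depth, and the values are a description without a test. Within a group the coefficient of variation of mt-Nd6 ranged from 1.19 percent in untreated WT mice at 9 weeks to 41.3 percent in AAV-shSCR-treated SCA7 mice, while that of mt-Co1 ranged from 1.80 to 9.35 percent. The 41.3 percent rests on replicate 5, at 61.6 CPM against 26.0 to 34.6 CPM in the other mice of that group. Of 10132 nuclear protein-coding genes with a mean of at least 10 CPM, those whose deviations were most like the mean of the 10 genes, which includes mt-Nd6 and the 3 genes at 0 or 1 count and so does not describe each of them, were Vps26a (r = 0.859), Ccnc (r = 0.856), Topors (r = 0.843), Nptn (r = 0.836) and Sycp1 (r = 0.822). Those least like this mean were Phldb1 (r = −0.814), Myo19 (r = −0.784) and Arhgap23 (r = −0.775).

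The other RNAs of the plus strand were measured at low levels, and the deposited counts come after removal of rRNA reads, so the 2 rRNA genes give remnants. A fit of all genes of the table tested 11 mitochondrial rRNAs and tRNAs in the comparisons at 25 weeks, 3 of them on the minus strand. The tRNAs named here were chosen after their values were seen. In AAV-shSCR-treated SCA7 mice mt-Rnr2, the large rRNA, was at 7.26, 5.58, 5.57, 4.73 and 5.47 CPM, against 10.5, 10.4, 9.56 and 9.99 CPM in WT mice. Every treated mouse was below every WT mouse, a difference of −0.82 on the log2 scale with an adjusted p of 0.000583 by edgeR. mt-Rnr1, the small rRNA, differed by −0.48 (adjusted p = 0.0136 by edgeR), mt-Tl1, the leucine tRNA between mt-Rnr2 and mt-Nd1, −0.76 (adjusted p = 0.00291 by edgeR) and mt-Ti, the tRNA after mt-Nd1, −0.47 (adjusted p = 0.0111 by edgeR), all without overlap between groups. mt-Tw, which follows mt-Nd2, had −0.75 (adjusted p = 0.0394 by edgeR), but its adjusted p was 0.1002 without replicate 4 of the AAV-shSCR-treated mice and 0.0701, 0.0932, 0.0587 and 0.0690 without replicates 1 to 4 of the WT mice, at log2 fold changes of −0.66 and of −0.75, −0.71, −0.79 and −0.77. Of the other plus-strand RNAs tested with AAV-shSCR, mt-Tm was at −0.013 (adjusted p = 0.956 by edgeR), mt-Tt at −0.28 (adjusted p = 0.413) and mt-Tv at −0.72 (adjusted p = 0.290). With AAV-shA4, mt-Ti was called, at −0.48 (adjusted p = 0.0109 by edgeR), against the same WT mice. In that comparison mt-Rnr2 was at −0.32 (adjusted p = 0.146), mt-Rnr1 at −0.22 (adjusted p = 0.297), mt-Tl1 at −0.24 (adjusted p = 0.365) and mt-Tw at −0.30 (adjusted p = 0.458), all by edgeR and with overlap. Compared directly, AAV-shA4 against AAV-shSCR gave 0.50 for mt-Rnr2 (adjusted p = 0.411), 0.27 for mt-Rnr1 (adjusted p = 0.556), 0.52 for mt-Tl1 (adjusted p = 0.416), 0.45 for mt-Tw (adjusted p = 0.599) and −0.0086 for mt-Ti (adjusted p = 0.991), again by edgeR, with overlap and without a call. With AAV-shA4 mt-Tm was lower, at −0.29 against WT (adjusted p = 0.117 by edgeR) and −0.27 against AAV-shSCR (adjusted p = 0.502 by edgeR). In these 2 comparisons mt-Tt was at −0.05 and 0.22 and mt-Tv at 0.09 and 0.80, and all of these values had overlap. Of all genes of the table tested, 4.10 percent were called with AAV-shSCR, 3.56 percent with AAV-shA4 and 0.0910 percent between the groups at 9 weeks.

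In untreated WT mice, mt-Rnr1 and mt-Rnr2 were called as higher at 25 weeks, where mt-Nd6 was higher as well. Their log2 fold changes were 0.54 (adjusted p = 0.0298 by edgeR) and 0.66 (adjusted p = 0.0330 by edgeR), against 5.42 percent of all genes called. Both calls were lost without any of 5 libraries. Without replicates 2 and 3 at 9 weeks the adjusted p was 0.1003 and 0.105 for mt-Rnr1 and 0.116 and 0.113 for mt-Rnr2, at log2 fold changes of 0.40 and 0.46 and of 0.52 and 0.50. Without replicates 2, 3 and 4 at 25 weeks it was 0.0671, 0.0649 and 0.0516 for mt-Rnr1 and 0.0641, 0.0596 and 0.0601 for mt-Rnr2, at log2 fold changes of 0.50, 0.54 and 0.56 and of 0.65, 0.69 and 0.67. mt-Rnr2 was at 1.01 without replicate 1 at 9 weeks. The other plus-strand RNAs tested at 25 against 9 weeks went both ways, and none was called. mt-Tt was at −0.64, mt-Tl1 at −0.03, mt-Tw at 0.12, mt-Tm at 0.21, mt-Ti at 0.22 and mt-Tv at 0.71. Among them only mt-Ti was without overlap. At 9 weeks mt-Rnr2 was at 9.16, 5.09 and 4.91 CPM in untreated WT mice, so that replicate 1 was near the 10.3, 9.26 and 9.12 CPM of the AAV-shA4-treated WT mice. On the minus strand, where mt-Nd6 lies, the tRNAs mt-Tq, mt-Te and mt-Tp had 4 to 53 counts per library, and between 9 and 25 weeks their log2 fold changes of 0.61, 1.18 and 0.81 missed the threshold (adjusted p = 0.230, 0.0610 and 0.132 by edgeR). In SCA7 mice with AAV-shSCR against WT these tRNAs were at 0.04, −0.15 and −0.23. With AAV-shA4 they were at 0.37, −0.015 and 0.39 against WT, and at 0.33, 0.13 and 0.63 against AAV-shSCR. In the comparisons with SCA7 mice all of them overlapped and none was called. With AAV-shA4 at 9 weeks mt-Tq was at 1.11 (adjusted p = 0.369 by edgeR), without overlap, and mt-Tp at 1.02 (adjusted p = 0.380 by edgeR), with overlap, while mt-Te had too few counts for a test. Of the plus-strand RNAs tested there, mt-Tw was at 0.58 (adjusted p = 0.324 by edgeR), without overlap. mt-Rnr2 was at 0.58, mt-Tt at 0.39, mt-Tl1 at 0.38, mt-Rnr1 at 0.32, mt-Ti at 0.09 and mt-Tm at −0.06, all with overlap. No plus-strand RNA was called in that comparison.

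Nuclear genes that encode the other subunits of the same complexes had medians near 0 in SCA7 mice. With AAV-shSCR against WT the median log2 fold change was −0.0041 for 36 subunits of complex I, 0.0087 for 9 of complex III, 0.0060 for 11 of complex IV and 0.02 for 15 of complex V, where the 6 plus-strand mitochondrial genes ranged from −0.22 to −0.12. Single nuclear subunits ranged from −0.15 to 0.10 in complex I and from −0.07 to 0.06 in complex III. In complexes IV and V they ranged from −0.06 to 0.10 and from −0.08 to 0.19. With AAV-shA4 against WT these medians were 0.01, 0.0060, 0.02 and 0.02, and with AAV-shA4 against AAV-shSCR 0.02, 0.02, 0.02 and −0.0031. Cox4i1 of complex IV passed the adjusted p with AAV-shSCR at 0.10 (adjusted p = 0.0491 by edgeR), which held in 3 of 15 alternatives. At 9 weeks the medians were −0.05, −0.04, −0.05 and −0.07 in AAV-shA4-treated WT mice. Between 9 and 25 weeks in WT mice, 16 of 36 subunits of complex I, 6 of 9 of complex III, 6 of 11 of complex IV and 8 of 15 of complex V passed the adjusted p as lower, against 11.1 percent of all genes, with medians of −0.15, −0.15, −0.16 and −0.15 and none past the fold limit. Among them Uqcr11 of complex III had −0.30 (adjusted p = 0.00542 by edgeR) and Cox6b1 of complex IV −0.27 (adjusted p = 0.00970 by edgeR), while mt-Cytb and mt-Co1 of these complexes differed by −0.09 and 0.09.

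Nuclear genes that act on mitochondrial DNA and RNA showed small differences. Of 19 genes of mitochondrial RNA processing, Fastkd2 (−0.19, adjusted p = 0.0124 by edgeR) and Ptcd2 (−0.17, adjusted p = 0.0253 by edgeR) passed as lower with AAV-shSCR, where Esrrg, 1 of 9 regulators of mitochondrial biogenesis, was also lower (−0.14, adjusted p = 0.0335 by edgeR), while 15.5 percent of all genes tested passed in either direction. With AAV-shA4, where 13.6 percent of all genes passed, Polrmt, the mitochondrial RNA polymerase that transcribes the 10 genes, had −0.12 (adjusted p = 0.0369 by edgeR) and Ppargc1a, a coactivator of mitochondrial biogenesis, 0.11 (adjusted p = 0.0454 by edgeR). At 25 against 9 weeks Ppargc1b rose by 0.44 (adjusted p = 0.00103 by edgeR), and Pprc1 (0.29, adjusted p = 0.00729) and Fastkd2 (0.25, adjusted p = 0.0191) also passed as higher by edgeR, while Hsd17b10, a part of mitochondrial RNase P, passed as lower (−0.26, adjusted p = 0.0168 by edgeR). In that comparison 3 of the 19 genes and 3 of the 9 regulators passed, against 23.0 percent of all genes. Of the genes named here, Ppargc1b was past the fold limit. Ptcd2 missed the threshold in 3 of 15 alternatives, and its log2 fold change ranged from −0.20 to −0.13 over all of them. The adjusted p of Esrrg, Polrmt, Ppargc1a, Pprc1, Fastkd2 at 25 against 9 weeks and Hsd17b10 was up to 0.0911, 0.117, 0.131, 0.0522, 0.0666 and 0.0863 under the least favourable alternative. Over all alternatives their log2 fold changes ranged from −0.15 to −0.11, −0.14 to −0.10, 0.09 to 0.14, 0.25 to 0.32, 0.21 to 0.29 and −0.32 to −0.19. In the comparisons of the AAV-shSCR and the AAV-shA4 group with WT mice, the 8 genes of mitochondrial transcription had medians of −0.03 and −0.04, and for the 8 genes of mitochondrial DNA replication it was −0.02 and −0.06, for the 19 genes of RNA processing −0.0089 and 0.01, and for the 9 regulators −0.0092 and −0.03.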

How the data were processed

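The values are raw read counts per gene from cerebellar RNA-seq of 20 libraries, deposited by the authors without normalization. Per the labels and methods, the authors trimmed the first base, used cutadapt 1.10 and dropped reads under 40 bases, removed rRNA reads with Bowtie2 2.2.8, mapped to build mm10 with STAR 2.5.3a and counted on Ensembl release 102 with HTSeq 0.6.1p1. Strand setting and treatment of reads mapping to several places are not stated.

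Symbols came from GENCODE release M21. The members and gene lists were chosen with earlier results of these data known. The tools were R 4.3.3 and edgeR 4.0.16 (TMM, filterByExpr with minimum count 10 and total 15, quasi-likelihood test, Benjamini-Hochberg over all protein-coding genes tested), limma 3.58.1 and DESeq2 1.42.0 as an alternative, and Python 3.11.15. Methods were tested on simulated data. The 14 libraries at 25 weeks, the 6 at 9 weeks and the 7 of untreated WT mice were fitted separately, and a call needed a fold change above 1.3 at an adjusted p under 0.05. Reads per library ranged from 31465586 to 54570503. Levels are CPM scaled over 20 libraries, with a pseudocount of 0.1 before logs.

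Besides the members and other mitochondrial genes, nuclear genes are named where they had the 3 highest or 3 lowest log2 fold changes among those of the lists (subunits, mitochondrial transcription, replication, RNA processing, biogenesis) with an adjusted p under 0.05, or the 5 highest or 3 lowest correlations with the mean of the members. Alternatives were DESeq2, its size factors in edgeR, all genes in the fit, no filter, scaling without mitochondrial genes, a replicate block, adjusted p alone and each library left out. Sequences are those of GENCODE M21 transcripts. The reference files used here held no protein sequences.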

Additional observations from a re-analysis of the deposited data

Results flagged for a closer look

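In 42 groups of 4 or 5 libraries, over 14 values, 2 libraries stood apart from their group, where chance gives about 1 in 20 groups. mt-Nd6 was at 61.6 CPM in AAV-shSCR-treated SCA7 replicate 5, while the other 4 mice of that group lay between 26.0 and 34.6 CPM, with a mean of 29.4 CPM. The gap to the nearest mouse was 0.757 of the whole range of the group. mt-Nd5 was at 3984 CPM in untreated WT replicate 2 at 25 weeks, while the other 3 mice lay between 3471 and 3517 CPM, with a gap of 0.911 of the range.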

How the results depend on the processing

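With each library left out in turn, the number of called genes ranged from 1 to 43 at 9 weeks, 498 to 596 for AAV-shSCR against WT, 452 to 572 for AAV-shA4 against WT, 0 to 0 for AAV-shA4 against AAV-shSCR and 573 to 804 for WT at 25 against 9 weeks. Members called ranged from 0 to 1 at 9 weeks, 0 to 0 in the 3 comparisons with SCA7 mice and 1 to 1 in WT at 25 against 9 weeks. At 9 weeks the number of called genes was 8, and it was 53 with DESeq2, 16 with all genes of the table, 26 without a filter and 37 with a replicate block. The call of mt-Rnr1 in WT at 25 against 9 weeks was lost with that block (adjusted p = 0.0669 by edgeR), at a log2 fold change of 0.59 against 0.54. With it mt-Nd6 for AAV-shSCR against WT was 0.04, from 0.19, mt-Nd5 for AAV-shA4 against WT was −0.0088, and in WT at 25 against 9 weeks mt-Nd1 and mt-Nd2 were −0.03 and mt-Nd5 0.014. Replicate numbers were not treated as pairs, since no comparison had a correlation above 0.1 in every pair. Single pairs were above it, with 0.539 and 0.260 for replicates 1 and 2 of AAV-shA4 against WT. Replicate 1 of AAV-shSCR against WT had 0.132. The adjusted p alone gave 2309 genes and 2 members for AAV-shSCR against WT, 2018 genes for AAV-shA4 against WT and 3419 genes for WT at 25 against 9 weeks. DESeq2 gave 4 genes for AAV-shA4 against AAV-shSCR. With windows of 40 bases, 11.99 percent of mt-Nd5, 57.0 percent of mt-Co1 and 1.36 percent of mt-Cytb were shared. The adjusted p alone and shorter windows are looser by construction, and for the other settings the cause was not tested.

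Another 215 values for the main comparisons stayed within their limits. Of 268 values for single genes outside the list of 10, 208 kept their direction and their side of the threshold, and 60 kept their direction but lost the threshold. Of 497 values for genes of the list, given without p, all moved by less than the spread between mice, and 21 changed sign. mt-Nd6 had 774 to 2332 counts per library.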

Other observations

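Choroid plexus markers had a summed level of 51.1 to 3871 CPM over the 20 libraries, with Ttr giving 92.1 percent of the sum. Endothelial markers summed to 211 to 241 CPM in untreated WT mice at 25 weeks, 193 to 221 CPM in AAV-shSCR-treated and 195 to 219 CPM in AAV-shA4-treated SCA7 mice, and in each SCA7 group 3 of 6 passed as lower and 1 as higher. Of 9 markers of Bergmann glia and astrocytes, 3 passed as lower in each SCA7 group, with medians of −0.13 and −0.08. Of 9 granule cell markers, 3 passed as lower with AAV-shSCR and 4 with AAV-shA4, with medians of −0.05 and −0.14. Of all protein-coding genes tested, 15.5 percent passed the adjusted p in either direction with AAV-shSCR and 13.6 percent with AAV-shA4.

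The pseudogene Gm28437 on chromosome 1, a copy of mt-Co3, had 781 of its 790 counts in replicate 2 of the untreated WT mice at 9 weeks and at most 4 in any other library. mt-Co3 itself had 2 counts, in replicate 3 of the AAV-shA4-treated WT mice. The copy of mt-Atp6, Gm10925, had 5, 5, 3, 8 and 4 counts in AAV-shSCR-treated SCA7 mice, 17, 11, 15, 11 and 11 in AAV-shA4-treated SCA7 mice and 28, 6, 19 and 21 in untreated WT mice at 25 weeks.

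Genes with deviations most like those of mt-Nd6 alone were looked up after its values were seen. Over the 20 libraries these were Kin (r = 0.863), Tent4b (r = 0.852), Ankrd12 (r = 0.835), Cnpy4 (r = 0.827) and Vps13a (r = 0.825), and the least like were Cmtm3 (r = −0.831), Tvp23a (r = −0.826) and Cnn2 (r = −0.807).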
